A study of Mus musculus with 9 samples.

Results

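The type 2 genes described here are Gata3, Maf, Il4, Il5, Il13, Areg, Il1rl1, Ptgdr2 and Il17rb, 9 genes taken by symbol from a table of 39253 genes, with 1 row each. They were measured by RNA sequencing in 9 libraries of CD4+ T cells from mice with experimental autoimmune encephalomyelitis (EAE), in which an induced immune attack on the brain and spinal cord serves as a model of multiple sclerosis, on day 9. The knockout of estrogen receptor alpha (ERα KO, called KO below) had 3 libraries in batch 1 (replicates 1 to 3) and 2 in batch 2 (replicates 4 and 5), and wildtype had 2 in batch 1 (replicates 1 and 2) and 2 in batch 2 (replicates 3 and 4). The title of the series concerns ERα in dendritic cells, but the cells that lack the receptor, the tissue the T cells came from, and the strain, age and sex of the mice are not stated in the labels. Nothing in the labels ties a library to its own animal, so p-values measure the spread between these libraries.

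Th2 cells are the helper T cells of type 2 immunity, which is directed at worms and is active in allergy. GATA3 is the transcription factor that sets this fate, MAF acts with it on the Il4 gene, and the cytokines IL-4, IL-5 and IL-13 and the growth factor amphiregulin (Areg) carry the response. IL-4 signals back through STAT6 to raise Gata3, while the receptor for IL-33 (ST2, from Il1rl1), the prostaglandin D2 receptor CRTH2 (Ptgdr2) and the IL-25 receptor chain (Il17rb) let such cells answer signals from tissue. In EAE the disease is driven mainly by Th1 and Th17 cells. Regulatory T cells also use GATA3, ST2 and amphiregulin, so these genes do not mark Th2 cells alone in a CD4+ population.

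Libraries held 5069169 to 8713129 counts in KO and 4926347 to 11296593 counts in wildtype in batch 1, and 54625373 to 62863222 counts in KO and 45013017 to 69844721 counts in wildtype in batch 2. Values are given as CPM, counts for every 1000000 counts of a library. CPM is not divided by transcript length, so levels of different genes are not ranked. The CD4+ T cell markers in the table, 11 of the 14 listed, summed to 4336 to 4658 CPM in KO and 4809 to 5111 CPM in wildtype libraries of batch 1, and to 6206 to 6298 CPM in KO and 5393 to 6033 CPM in wildtype libraries of batch 2. None of the 11 was at 0 in a whole group. Esr1, the targeted gene, had 0.143 and 0.256 CPM in KO against 1.45 and 1.69 CPM in wildtype libraries of batch 2. In batch 1 it had 9.58, 6.31 and 13.0 CPM in KO against 4.87 and 16.2 CPM in wildtype libraries, so there it does not check the genotype labels. Batch 1 libraries also held counts in 1514 olfactory, vomeronasal and taste receptor genes, which T cells do not normally express, at 0.102% to 0.256% of counts in KO and 0.0577% to 0.154% in wildtype, against at most 0.0037% in any batch 2 library. KO replicate 3 stood apart within batch 1, with 30.4 CPM of the X-inactivation transcript Xist and 55.4 CPM of the Y-linked Ddx3y, where the other 4 batch 1 libraries had 1745 to 2680 CPM of Xist and 0 CPM of Ddx3y. All 4 batch 2 libraries had 0 to 0.289 CPM of Xist and 93.6 to 107 CPM of Ddx3y. These sex-linked transcripts thus differed between the batches, and sex and batch cannot be told apart in batch comparisons. Within batch 1 only KO replicate 3 had Ddx3y, so they were also unbalanced between the genotypes there. The part of this in the genotype values of batch 1 and over both batches was not tested.

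Gata3 (Entrez Gene 14462, chromosome 2), the master factor of Th2 cells, had 836 to 14252 counts a library. In batch 1 its level was 173, 183 and 199 CPM in KO libraries, against 208 and 169.7 CPM in wildtype libraries. The wildtype libraries lay on either side of the KO libraries, so the groups overlapped. Batch 2 gave 203 and 255 CPM in KO libraries, against 198 and 317 CPM in wildtype libraries, and wildtype replicate 4 was the highest of all 9. The KO libraries lay between the wildtype ones. In bulk samples such as these, fewer cells that express a gene and less RNA per cell cannot be told apart.

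Gata3 did not pass the test in any comparison of the genotypes. A log2 fold change here is KO over wildtype from edgeR's quasi-likelihood test, with Benjamini-Hochberg adjustment over all genes tested and a threshold of 0.05. It was -0.20 ± 0.37 (SE) in batch 1 (adjusted p = 1.00), -0.16 ± 0.23 in batch 2 (adjusted p = 0.908) and -0.12 ± 0.14 over both batches with batch as a covariate (adjusted p = 1.00). The 95% interval over both batches ran from -0.40 to 0.16. The sign rested on single libraries: without wildtype replicate 4 the estimate over both batches was 0.0013 and that in batch 2 was 0.17.

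Maf (Entrez Gene 17132, chromosome 8), the partner of GATA3 at the Il4 gene, which is also used by follicular helper and IL-10-producing T cells, was, like Gata3, highest in wildtype replicate 4. In batch 1 it had 83.7, 125 and 109 CPM in KO libraries, against 121 and 84.2 CPM in wildtype libraries. In batch 2 its level was 164 and 191 CPM in KO libraries, against 108 and 279 CPM in wildtype libraries. Again the wildtype libraries of batch 2 enclosed the KO ones, with a spread of 2.58-fold between them against 1.16-fold between the KO libraries. The log2 fold change was -0.13 ± 0.37 in batch 1, -0.10 ± 0.48 in batch 2 and -0.06 ± 0.24 over both batches (edgeR adjusted p = 1.00, 0.975 and 1.00).

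The batch 2 value of Maf depended on which wildtype library was kept. Without wildtype replicate 3 it was -0.61 ± 0.11 (edgeR adjusted p = 0.0352), and without wildtype replicate 4 it was 0.67 ± 0.12 (edgeR adjusted p = 0.0112), past the threshold in opposite directions. Each of these fits has a single wildtype library, which is taken to vary as the KO libraries do.

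**Figure D1:**
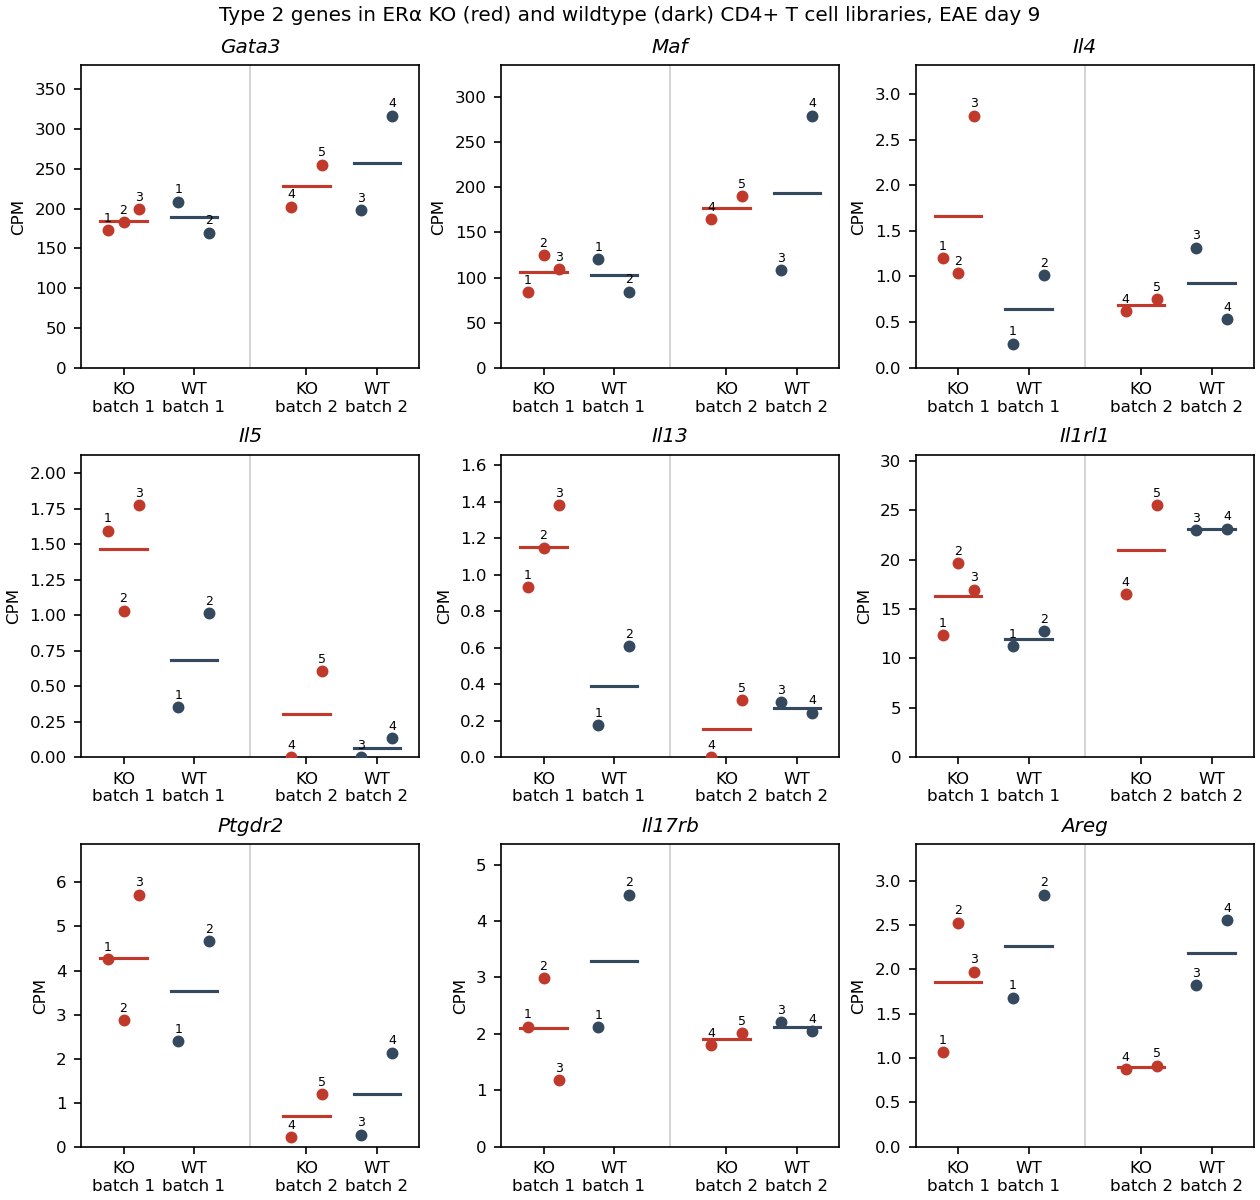
CPM of the 9 type 2 genes in each library, by genotype and batch, with KO in red left of wildtype in dark blue, the group mean as a line and the replicate number beside each point. The KO points of Gata3 and Maf lie between the wildtype points in batch 2, while those of Areg lie below both of them, at 0.875 and 0.915 CPM in KO against 1.82 and 2.55 CPM in wildtype.

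The cytokine genes Il4, Il5 and Il13 lie close together on mouse chromosome 11, in the order Il4, Il13, Rad50, Il5 in the annotation, and encode the effector products of Th2 cells. All 3 had few counts. Il4 (Entrez Gene 16189), the cytokine that drives Th2 fate and the switch to IgE in B cells, had 1.20, 1.03 and 2.76 CPM in KO libraries of batch 1 (9, 9 and 14 counts), against 0.266 and 1.01 CPM in wildtype libraries (3 and 5 counts). The KO libraries were all higher than the wildtype ones, KO replicate 2 by the narrowest margin. Batch 2 gave 0.620 and 0.751 CPM in KO libraries (39 and 41 counts), against 1.32 and 0.533 CPM in wildtype libraries (92 and 24 counts). There the wildtype libraries enclosed the KO libraries, so the batch 1 order was not seen in the deeper batch.

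Il5 (Entrez Gene 16191), whose product is the growth factor of eosinophils, had 1.60, 1.03 and 1.78 CPM in KO libraries of batch 1, against 0.354 and 1.01 CPM in wildtype libraries. As with Il4, every KO library was higher. In batch 2 the gene had 0 and 33 counts in KO libraries, against 0 and 6 counts in wildtype libraries. At a floor of 3 counts, a count of 0 allows up to 0.0477 CPM in KO replicate 4 and 0.043 CPM in wildtype replicate 3, and KO replicate 5 had 0.604 CPM, so the 2 KO libraries differed from each other by more than the genotypes did.

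Il13 (Entrez Gene 16163), whose product acts on epithelium and smooth muscle, had 0.931, 1.15 and 1.38 CPM in KO libraries of batch 1 (7, 10 and 7 counts), against 0.177 and 0.609 CPM in wildtype libraries (2 and 3 counts). The groups did not overlap. Its batch 2 levels were 0 and 0.311 CPM in KO libraries, against 0.301 and 0.244 CPM in wildtype libraries, and the groups overlapped.

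Summed over libraries, the batch 1 counts were 32 in KO and 8 in wildtype for Il4, 30 and 9 for Il5, and 24 and 5 for Il13. The summed Il4 level was 1.50 CPM in KO (95% exact Poisson interval 1.03 to 2.12) and 0.493 CPM in wildtype (0.213 to 0.972), where the interval covers counting error only. Il4 and Il13 fell under the low-count filter of edgeR in batch 1 and Il5 did so in batch 2, so these have no test there. Il5 had a log2 fold change of 1.05 ± 1.06 in batch 1 and 1.62 ± 1.15 over both batches (edgeR adjusted p = 1.00 each). Il4 had -0.45 ± 0.75 in batch 2 and 0.42 ± 0.74 over both batches, and Il13 had -0.82 ± 1.89 in batch 2, none past the threshold (edgeR adjusted p = 0.919, 1.00 and 0.949). Over both batches Il13 was not tested.

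Il4, Il5 and Il13 did not overlap between the genotypes in batch 1, all with KO higher. Of these, Il5 was the 1 of 7 type 2 genes tested there that did so, where 10.9% of the 24600 genes tested in batch 1 did in that direction and 5.19% in the other, while Il4 and Il13 lie outside the genes this share covers. Receptor genes that T cells do not normally express had counts in the same libraries. The median receptor gene had 0.532, 0.574 and 1.38 CPM in KO libraries of batch 1, against 0.266 and 0.812 CPM in wildtype libraries. Of the 1510 receptor genes with a count in batch 1, 15.3% were higher in every KO library than in both wildtype libraries, and 1.19% were lower. In batch 2 the median receptor gene was at 0 in all 4 libraries. The part of this receptor background in the cytokine levels of batch 1 was not tested.

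**Figure D2:**
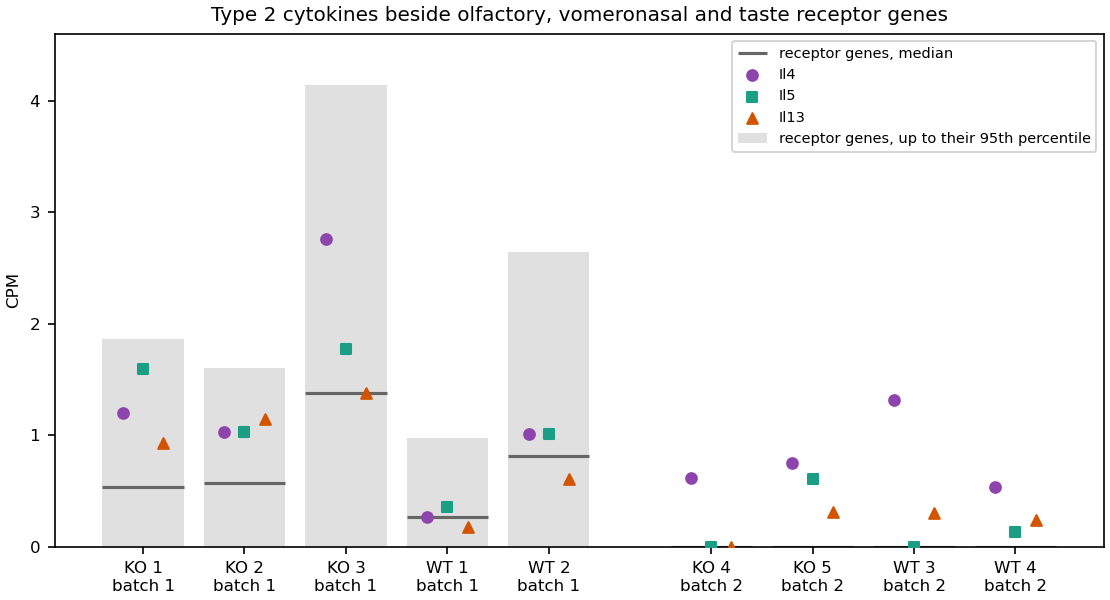
CPM of Il4, Il5 and Il13 (symbols) in each library beside the olfactory, vomeronasal and taste receptor genes, whose median is the grey line and whose 95th percentile is the top of the grey bar. In all 5 batch 1 libraries the cytokines lie within the range of the receptor genes, and in the 4 batch 2 libraries the receptor median and 95th percentile are 0. CPM is not divided by transcript length, so the heights of different genes are not ranked.

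Cells other than T cells can also make these cytokines. Basophils and mast cells store and release IL-4 and IL-13. Their marker list, with 12 of 12 genes in the table, summed to 32.5 to 75.9 CPM in KO and 30.8 to 31.1 CPM in wildtype libraries of batch 1. In batch 2 it summed to 5.57 to 5.77 CPM in KO and 6.15 to 15.2 CPM in wildtype libraries, and the defining genes Mcpt8, Fcer1a, Cma1, Tpsb2 and Mcpt4 were at 0 in both KO libraries, while Tpsb2 and Mcpt4 were at 0 in both wildtype ones. The eosinophil list (8 of 8 genes) summed to 13.6 to 29.2 CPM in KO and 10.6 to 10.7 CPM in wildtype libraries of batch 1, and to 4.23 to 5.97 CPM in KO and 6.77 to 12.0 CPM in wildtype libraries of batch 2. Both lists were thus higher in KO libraries of batch 1, as the 3 cytokines were, and lower in KO libraries of batch 2. Other lists moved likewise. Monocyte and macrophage markers summed to 259 to 297 CPM in KO and 104 to 235 CPM in wildtype libraries of batch 1 (5 of 10 tested genes positive). Their sums were lower in KO libraries of batch 2. Neutrophil markers had 9 of 9 positive log2 fold changes in batch 1 and 0 of 8 in batch 2. The CD4+ T cell sums went the other way in both batches. The part of these lists and of the receptor background in the cytokine levels was not tested.

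Areg (Entrez Gene 11839, chromosome 5), which encodes amphiregulin, a ligand of the epidermal growth factor receptor that supports tissue repair, had lower levels in both KO libraries of batch 2. It had 0.875 and 0.915 CPM in KO libraries (55 and 50 counts), against 1.82 and 2.55 CPM in wildtype libraries (127 and 115 counts). The groups did not overlap, and the mean was 0.895 ± 0.029 CPM in KO and 2.19 ± 0.52 CPM in wildtype (SD, n = 2 each). Summed over libraries, the level was 0.894 CPM in KO (95% exact Poisson interval 0.731 to 1.08) and 2.11 CPM in wildtype (1.85 to 2.39). In batch 1 its levels were 1.06, 2.52 and 1.97 CPM in KO libraries, against 1.68 and 2.84 CPM in wildtype libraries. There the groups overlapped, with 8 to 22 counts a library.

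The log2 fold change of Areg was -1.27 ± 0.47 in batch 2 (unadjusted p = 0.0395, edgeR adjusted p = 0.627), -0.37 ± 0.76 in batch 1 (adjusted p = 1.00) and -0.78 ± 0.54 over both batches (adjusted p = 1.00). It ranked 1004 by p among the 15910 genes tested in batch 2, where 1237 genes (7.77%) had an unadjusted p under 0.05. Its batch 2 value was negative in each of 8 alternative settings, from -1.47 to -1.06, and did not pass the threshold in any of them (lowest adjusted p = 0.309). The interaction of batch and genotype, batch 2 minus batch 1, was -0.98 ± 1.07 (edgeR adjusted p = 0.949), so the values of the batches were not shown to differ. Neutrophil markers moved in the same direction in batch 2, with a sum of 5.58 to 9.24 CPM in KO and 22.9 to 208 CPM in wildtype libraries over 9 of 9 listed genes, none of them at 0 in a whole group. Monocyte and macrophage markers (11 of 11 genes, none at 0 in a whole group) summed to 105 to 150.1 CPM in KO and 155 to 226 CPM in wildtype libraries of batch 2, and 11 of 11 had a negative log2 fold change there. Erythroid markers (6 of 6 genes, none at 0 in a whole group) summed to 130.0 to 141 CPM in KO and 96.9 to 1820 CPM in wildtype libraries, with 6 of 6 negative. The erythroid sums overlapped between the genotypes. Hbb-bt, for 1, had 54.8 and 52.6 CPM in KO, against 608 CPM in wildtype replicate 3 and 39.1 CPM in wildtype replicate 4. The basophil, mast cell and eosinophil sums given above were lower in KO libraries of batch 2, like the neutrophil and monocyte ones. Other lists were mixed there. Of their tested genes, 5 of 8 B cell, 3 of 6 dendritic cell and 8 of 10 regulatory T cell markers had a positive log2 fold change. So did 11 of 11 CD4+ T cell and 10 of 10 follicular helper T cell markers. Fewer did among natural killer cell (2 of 7), natural killer T cell (2 of 6) and group 2 innate lymphoid cell markers (3 of 9). The last list includes Gata3 and Il1rl1. The 1 tested marker each of CD8+ and gamma-delta T cells was negative. The part of these lists in the Areg values was not tested.

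The receptors of the type 2 programme did not separate by genotype in both batches. Il1rl1 (Entrez Gene 17082, chromosome 1), which encodes the IL-33 receptor ST2, had 12.4, 19.6 and 17.0 CPM in KO libraries of batch 1, against 11.2 and 12.8 CPM in wildtype libraries. KO replicate 1 lay between the wildtype libraries and the other KO libraries above them. Batch 2 libraries had 16.5 and 25.5 CPM in KO, against 23.0 and 23.1 CPM in wildtype, which lay between the KO ones. The log2 fold change was 0.30 ± 0.40 in batch 1, -0.13 ± 0.24 in batch 2 and 0.14 ± 0.20 over both batches (edgeR adjusted p = 1.00, 0.927 and 1.00).

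Ptgdr2 (Entrez Gene 14764, chromosome 19), which encodes the prostaglandin D2 receptor used to sort Th2 cells, had 4.26, 2.87 and 5.72 CPM in KO libraries of batch 1, against 2.39 and 4.67 CPM in wildtype libraries. In batch 2 the levels were 0.223 and 1.19 CPM in KO libraries, against 0.272 and 2.13 CPM in wildtype libraries. The groups overlapped in both batches, and in batch 2 the libraries of 1 genotype differed 5.34-fold in KO and 7.84-fold in wildtype. Its log2 fold change was 0.16 ± 0.64 in batch 1, -0.73 ± 1.22 in batch 2 and -0.22 ± 0.72 over both batches (edgeR adjusted p = 1.00, 0.920 and 1.00).

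Il17rb (Entrez Gene 50905, chromosome 14), a chain of the IL-25 receptor, had 2.13, 2.98 and 1.18 CPM in KO libraries of batch 1, against 2.12 and 4.47 CPM in wildtype libraries, and the groups overlapped. In batch 2 it stood at 1.80 and 2.01 CPM in KO libraries, against 2.20 and 2.04 CPM in wildtype libraries. The KO libraries of batch 2 were lower by a small margin, and the log2 fold change there was -0.16 ± 0.40, against -0.64 ± 0.72 in batch 1 and -0.41 ± 0.49 over both batches (edgeR adjusted p = 0.954, 1.00 and 1.00). With Areg, Il17rb made 2 of 8 tested genes that did not overlap in batch 2, both with KO lower, where 20.5% of the 15910 genes tested in batch 2 did so in that direction and 19.6% in the other. None of the 9 genes separated the genotypes in both batches.

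**Figure D3:**
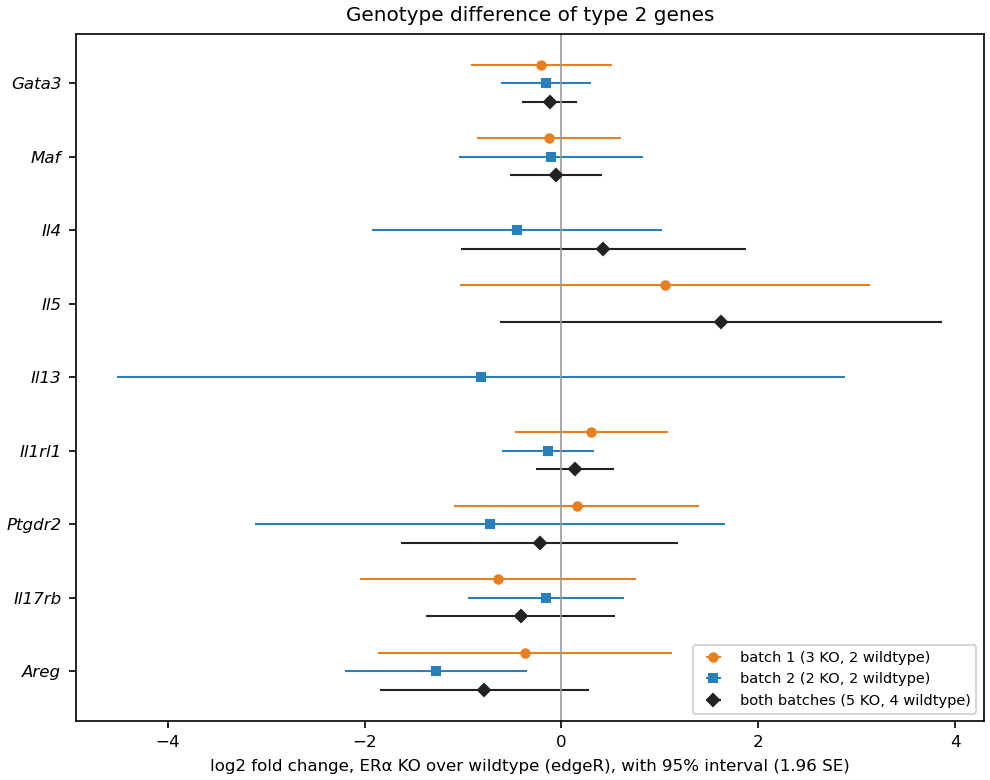
Log2 fold change, KO over wildtype, of each type 2 gene in batch 1 (circles), batch 2 (squares) and over both batches (diamonds), with 95% intervals. A missing symbol is a gene under the low-count filter in that fit. The only interval that leaves out 0 is that of Areg in batch 2, at -1.27, whose adjusted p was 0.627.

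Counted over the 9 genes, 0 of the 7 tested in batch 1 passed the threshold with edgeR, where 31 genes (0.126%) did over the whole table, and 0 of the 7 had an unadjusted p under 0.05. In batch 2, 0 of 8 passed, as did 0 of all genes (0%), with 1 of 8 at an unadjusted p under 0.05, and over both batches 0 of 8 passed, where 1 gene of 22197 did (0.00451%), with 0 of 8 at an unadjusted p under 0.05. DESeq2 also called 0 of them in each of these comparisons. It called 0.13% of all genes in batch 1, 2.07% in batch 2 and 0.0721% over both batches. Over both batches it gave no adjusted p for 5 of the 8 (Il4, Il5, Ptgdr2, Il17rb and Areg), so only Gata3, Maf and Il1rl1 could be called. In batch 2 the fold changes of all 8 tested genes were below 0, and their median was -0.30 against -0.02 for all genes, of which 47.8% were positive. That sign was not stable: without KO replicate 4, the estimates of Gata3, Maf, Il13, Il1rl1 and Ptgdr2 were positive, and without wildtype replicate 4 those of Gata3, Maf and Ptgdr2 were. Over both batches 3 were positive and 5 negative, with a median of -0.09 against 0.01 for all genes. In the interaction test 0 of 8 passed, where 1 gene did (0.00451%), 0 of 8 had an unadjusted p under 0.05, and DESeq2 called 0 of them, with no adjusted p for 1, and 0.743% of all genes.

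**Figure D4:**
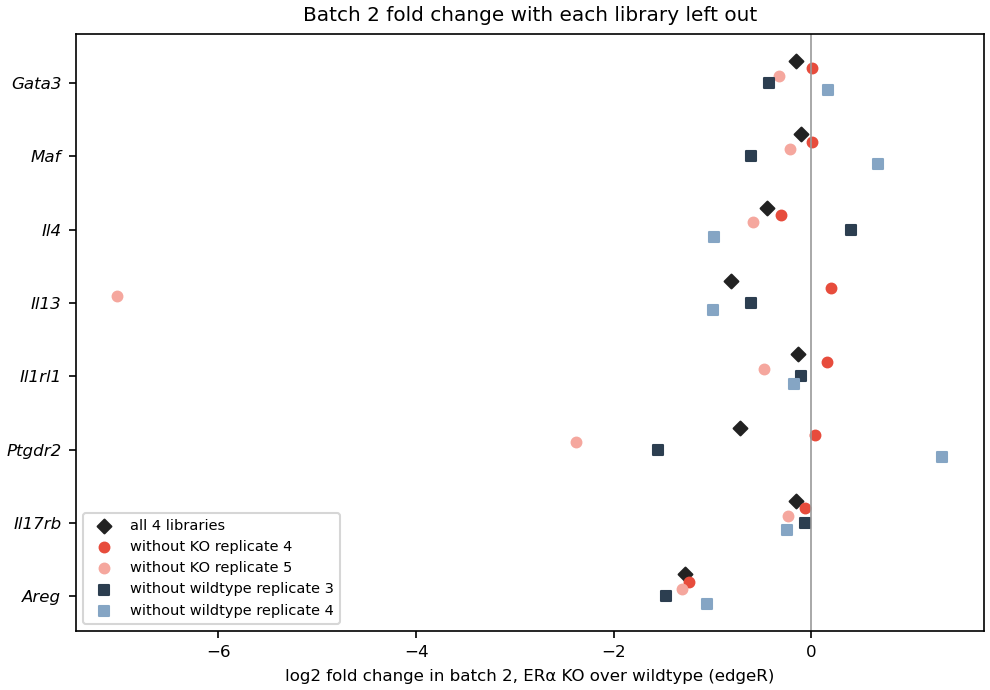
Log2 fold change, KO over wildtype, in batch 2 with all 4 libraries (diamonds) and with each library left out (other symbols), for the 8 type 2 genes tested there. Areg and Il17rb stay below 0 in all 5 fits, while Maf runs from -0.61 to 0.67. The value of Il13 without KO replicate 5 is set by a KO library with 0 counts, so it is no bound.

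The balance of Gata3 with other lineage factors was compared within each library, as the log2 ratio of CPM + 0.5. Tbx21 encodes T-bet, the Th1 factor, and GATA3 and T-bet restrain each other in helper T cells. The ratio of Gata3 over Tbx21 was 2.49, 2.48 and 2.51 in KO libraries of batch 1, against 3.08 and 3.45 in wildtype libraries. In batch 2 it was 3.41 and 2.71 in KO libraries, against 2.48 and 2.06 in wildtype libraries. The genotypes did not overlap in either batch, with the KO libraries lower in batch 1 and higher in batch 2, so the mean difference over both was 0.011 (two-sided exact permutation of genotype within batch, 60 assignments, p = 1.00).

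That difference was -0.77 in batch 1 and 0.79 in batch 2. The change between batches, 1.57 on the log2 scale, was tested after the values had been seen. It gave p = 0.0167, the smallest that 60 assignments allow in a two-sided exact permutation test. After adjustment over 3 ratios this was 0.05, which is not under the threshold. The permutation assumes no genotype difference in either batch, so it is not a test of equal differences in the 2 batches. Tbx21 itself had 30.3, 32.3 and 34.5 CPM in KO libraries of batch 1, against 24.3 and 15.0 CPM in wildtype libraries. Batch 2 gave 18.5 and 38.6 CPM in KO libraries, against 35.1 and 75.7 CPM in wildtype libraries. Tbx21 was thus higher in every KO library of batch 1 and overlapped between the genotypes in batch 2, while Gata3 overlapped in both. As background, 4.96% of the 15288 genes tested in both batches had CPM values that did not overlap in either batch with opposite directions.

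Foxp3 encodes the factor of regulatory T cells. The ratio of Gata3 over Foxp3 was 0.21, -0.62 and 0.49 in KO libraries of batch 1, against 0.60 and -0.01 in wildtype libraries, and it was -0.54 and -0.45 in KO libraries of batch 2, against -0.13 and 0.13 in wildtype libraries. Both KO libraries of batch 2 were lower and the groups of batch 1 overlapped. The mean difference over both batches was -0.38 (two-sided exact permutation p = 0.183, adjusted over 3 ratios 0.55). Regulatory T cell markers in batch 2 summed to 1067 to 1169 CPM in KO and 828 to 1073 CPM in wildtype libraries, over 10 of 10 listed genes. The ratio of Gata3 over Maf differed by -0.12 over both batches, with overlap in both (two-sided exact permutation p = 0.6, adjusted 0.9).

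**Figure D5:**
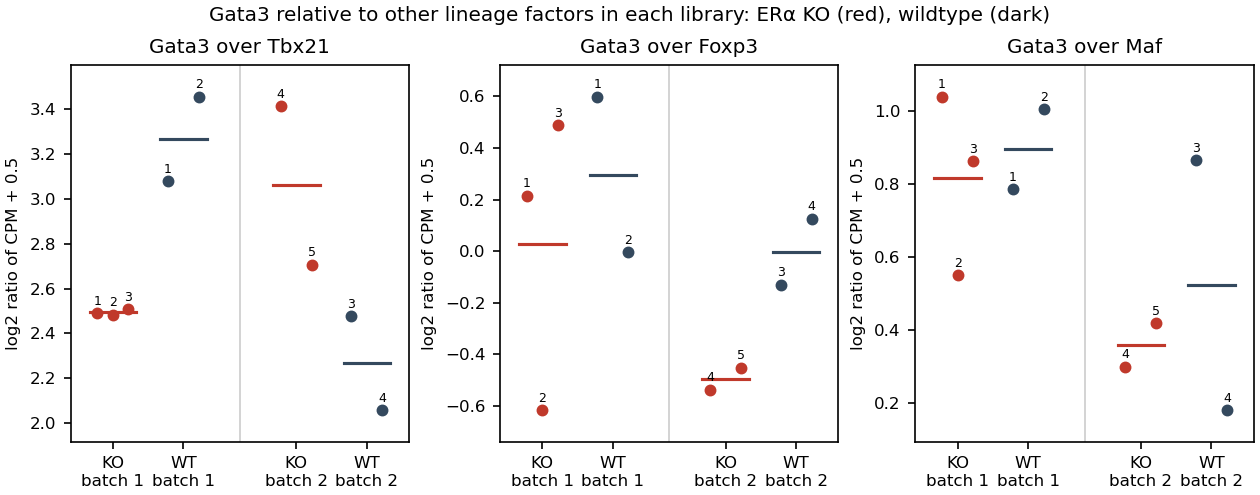
Log2 ratio of Gata3 over Tbx21, Foxp3 and Maf (CPM + 0.5) in each library, with KO in red left of wildtype in dark blue and group means as lines. In the left panel the KO points lie below the wildtype points in batch 1, by 0.77 between the means, and above them in batch 2, by 0.79.

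Of the 8 type 2 genes tested, 4 passed the threshold for batch 2 against batch 1, where 64.1% of all genes did, 16.8% higher and 47.3% lower in batch 2, around a median of -0.76 on the log2 scale. DESeq2 called the same 4 genes, where it called 64.9% of all genes. Gata3 was higher in batch 2 by 0.59 ± 0.14 (edgeR adjusted p = 0.00405), Maf by 1.04 ± 0.24 (adjusted p = 0.00325) and Il1rl1 by 0.85 ± 0.20 (adjusted p = 0.00356). These 3 kept their call in each of 13 alternative settings. T cell genes outside the type 2 set were higher in batch 2 too. Of the CD4+ T cell markers, 11 of 11 tested were called higher by edgeR, with a median of 0.56. Of the regulatory T cell markers, 7 of 10 were, with a median of 0.76. Ptgdr2 was lower in batch 2, with a log2 fold change of -1.89 ± 0.75 (adjusted p = 0.0454), a call lost when any 1 of the 5 KO libraries, wildtype replicate 2 or wildtype replicate 3 was left out (lowest and highest adjusted p over the 13 settings 0.00813 and 0.115). Il5 had -2.44 ± 1.16 (adjusted p = 0.0844), and without KO replicate 5 it passed at -4.39 (adjusted p = 0.0212). Depth, the receptor background, Xist, Ddx3y and the markers of T cells and of other cells moved with the batches as well, and their part was not tested.

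The other genes of type 2 biology were followed through lists, beside which 2.36% of all genes had an unadjusted p under 0.05 over both batches, 51.4% had a positive log2 fold change and the median was 0.01. Among 16 tested genes of IL-4 receptor and STAT6 signalling, 0 passed the threshold over both batches with edgeR (0 at an unadjusted p under 0.05), and the median log2 fold change was 0.09. Of these, Socs5, an inhibitor of IL-4 signalling, had 0.30 ± 0.14 and Il13ra1, the chain that pairs with the IL-4 receptor to bind IL-13, had 0.90 ± 0.58. Among 35 tested regulators of Th2 fate, 0 passed (3 at an unadjusted p under 0.05), with 10 positive and 25 negative and a median of -0.08. Sox4, which binds GATA3 and restrains Th2 differentiation, had -0.84 ± 0.23, and Eomes, a relative of T-bet, had 0.74 ± 0.26 (edgeR adjusted p = 1.00 each).

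Sox4 had 12.5, 19.5 and 18.7 CPM in KO libraries of batch 1, against 29.6 and 33.7 CPM in wildtype libraries. In batch 2 it stood at 14.9 and 7.07 CPM in KO libraries, against 19.9 and 16.0 CPM in wildtype libraries. Every KO library was below the wildtype libraries of its batch, which 1.07% of the 15288 genes tested in both batches shared, and 2% were higher in every KO library in both. Sox4 was named for its small p in these same libraries, so its separation is no separate support, and the share for all genes is not a like comparison.

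Among 9 tested other cytokines made by Th2 and related cells, 0 passed over both batches (1 at an unadjusted p under 0.05). Il22, a cytokine of Th17 and Th22 cells that acts on epithelium, had -1.45 ± 0.60, and Penk, which encodes the enkephalin precursor, had 0.66 ± 0.41. Il22 had 1.19 and 1.14 CPM in KO libraries of batch 2, against 8.50 and 7.04 CPM in wildtype libraries, and in batch 1 it had 2.26, 3.21 and 2.56 CPM in KO libraries, against 4.07 and 1.83 CPM in wildtype libraries, where the groups overlapped. Among 23 tested surface and lipid-mediator genes, 0 passed (3 at an unadjusted p under 0.05). Il1r1, the IL-1 receptor, had -0.79 ± 0.30. Nt5e, which encodes CD73, an enzyme that makes adenosine, had 0.59 ± 0.13 (edgeR adjusted p = 1.00), and DESeq2 called it (adjusted p = 0.0406). Nt5e, named for its small p as Sox4 was, was higher in every KO library of both batches, as were 2% of the 15288 genes. It had 37.1, 35.1 and 32.7 CPM in KO against 26.7 and 23.3 CPM in wildtype libraries of batch 1. In batch 2 it had 56.3 and 65.5 CPM in KO against 38.7 and 32.5 CPM in wildtype libraries.

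The list of alarmins, which are cytokines released by damaged tissue, and of enzymes of prostaglandin synthesis had 4 tested genes, of which Il33, the ligand of ST2, had 0.33 ± 0.79 and Il18, a cytokine of the IL-1 family, had 0.08 ± 0.57 (0 called, 0 at an unadjusted p under 0.05). Among 10 tested neighbours of the Il4 locus 0 passed (1 at an unadjusted p under 0.05). Rad50, the DNA repair gene that holds the locus control region of the Th2 cytokines, had -0.27 ± 0.12, and Slc22a4, a carnitine and ergothioneine transporter, had -1.57 ± 0.77. Among 11 tested genes of the amphiregulin and EGF receptor axis 0 passed (0 at an unadjusted p under 0.05). Egfr had 1.06 ± 0.63 and Nrg1, a ligand of the related receptors, -0.91 ± 0.85.

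Within the single batches the same 7 lists had 0 calls with edgeR. In batch 1 an edgeR unadjusted p under 0.05 was seen for 2 of 35 regulators and no gene of the other lists, against 1.97% of all genes. In batch 2 it was seen for 4 of 9 other cytokines, 4 of 34 regulators and 3 of 22 surface and lipid-mediator genes. There 2 of 9 locus neighbours and 1 of 7 EGF receptor axis genes had it too, and no gene of the other lists, against 7.77% of all genes. DESeq2 called 0 of their genes in batch 1, where it called 0.13% of all genes, and 8 in batch 2, where it called 2.07%. The 8 were Junb, Bhlhe40 and Nfil3 of 34 regulators, Il22 of 9 other cytokines, Il1r1 and Nt5e of 22 surface and lipid-mediator genes, and Septin8 and Slc22a4 of 9 locus neighbours, named after their values were seen. Over both batches Nt5e was the 1 gene of the 7 lists that DESeq2 called, where it called 0.0721% of all genes. There it gave no adjusted p for the 4 tested genes of the alarmin list and for 6 of the 11 of the EGF receptor axis.

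The genes whose pattern was most like those of Gata3 and Maf were found by the root-mean-square difference in log2(CPM + 0.5), centred on each batch, over the 9 libraries and 9386 genes with a mean of at least 5 CPM in each batch. For Gata3 they were Dpy19l3 (0.063), Anxa6 (0.071), Luzp1 (0.075) and Capn2 (0.076), against a median of 0.28 over all candidates. For Maf they were Axl (0.14), Ptms (0.16), Ptpn13 (0.17) and Abi2 (0.19), against a median of 0.41.

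Promoters were available for 8 of the 9 genes (10 start sites, RefSeq, GRCm38.p6). They are shown because GATA3 binds DNA itself and because Il4, Il5 and Il13 shared their order in batch 1. The words AGATAA and AGATAG, forms of the GATA motif, were sought on both strands in the 300 bases from 250 before to 50 after each start. At least 1 was found in 4 of 10 promoters, those of Il13, Il5 and both starts of Il1rl1, against 18.6% of the 32851 promoters in the table. The words share no bases with each other in these windows. The estrogen response element, GGTCA and TGACC with any 3 bases between them, was in 0 of 10 (0.07% of all promoters). TGCTGAC, a part of the MAF recognition element, was in 0 of 10 (4.67%). The table is of another build than that named for the count table, and a match is a description of letters, not a bound site. The 250 bases before the starts of Il13 (chr11:53634703-53634952, minus strand), Il5 (chr11:53720544-53720793, plus strand) and Il1rl1 (chr1:40429320-40429569 and chr1:40439379-40439628, plus strand) are shown 5′ to 3′, with each match in capitals, CTATCT and TTATCT being the words read on the other strand.
Il13: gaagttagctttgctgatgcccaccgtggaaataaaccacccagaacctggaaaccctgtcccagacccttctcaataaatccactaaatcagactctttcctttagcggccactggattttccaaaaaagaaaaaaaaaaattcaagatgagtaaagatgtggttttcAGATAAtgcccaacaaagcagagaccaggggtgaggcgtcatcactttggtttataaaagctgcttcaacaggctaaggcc
Il5: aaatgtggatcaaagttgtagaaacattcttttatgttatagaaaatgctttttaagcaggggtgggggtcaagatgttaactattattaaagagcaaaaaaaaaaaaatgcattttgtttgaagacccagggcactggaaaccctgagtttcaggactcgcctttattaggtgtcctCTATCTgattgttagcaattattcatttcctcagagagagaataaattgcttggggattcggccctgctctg
Il1rl1, first start: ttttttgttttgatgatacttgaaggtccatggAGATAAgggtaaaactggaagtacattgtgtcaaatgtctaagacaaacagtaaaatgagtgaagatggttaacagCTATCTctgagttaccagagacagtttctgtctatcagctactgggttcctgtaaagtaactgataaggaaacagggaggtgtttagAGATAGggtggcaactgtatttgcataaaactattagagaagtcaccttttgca
Il1rl1, second start: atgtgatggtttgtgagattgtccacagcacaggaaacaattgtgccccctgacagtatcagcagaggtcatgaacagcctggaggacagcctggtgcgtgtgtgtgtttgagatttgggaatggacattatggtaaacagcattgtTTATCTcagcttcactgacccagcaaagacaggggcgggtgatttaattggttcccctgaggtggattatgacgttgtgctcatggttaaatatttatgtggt
The first base of the match was 81 bases before the start in Il13 and 72 in Il5, whose match is on the other strand. In Il1rl1 the matches began 217, 141 and 54 bases before the first start and 103 before the second. Il4, whose level had the same order as Il5 and Il13 in batch 1, had neither AGATAA nor AGATAG in its promoter windows. Other forms of the GATA motif, such as TGATAA and TGATAG, were not sought or marked. The search thus does not show that Il4 lacks a GATA motif.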

How the data were processed

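Libraries were prepared from total RNA of CD4+ T cells with an Ovation kit and read as 100-base single ends, per the labels' protocols. The submitters' processing notes list Salmon 1.2.0, R 4.0.3 and GRCm39 with no role for each. The annotation, the strand setting and how transcripts were summed to genes are not stated there. Estimated counts (expected counts) per gene were deposited by the authors, and these were not whole numbers and were rounded for the count models. Groups and batches follow the labels. Fits used edgeR 4.0.16 in R 4.3.3 (quasi-likelihood, robust, TMM, default filter with a minimum count of 10 and a minimum total of 15, Benjamini-Hochberg adjustment over all genes tested). Alternatives used DESeq2 1.42.0, limma 3.58.1, other scaling or filters, and leaving out each library. A floor of 3 counts is 0.043 to 0.609 CPM, and intervals and floors cover counting error only, if the estimates are read as numbers of reads. The scripts were tested on simulated data. Chromosomes came from a RefSeq table of GRCm38. The genes and lists were chosen with earlier results of these data known. From each list, genes called by edgeR were to be named, and as there were none, the 2 with the smallest p over both batches were. Without the strand setting, reads of overlapping genes on the 2 strands cannot be told apart.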

Additional observations from a re-analysis of the deposited data

Results flagged for a closer look

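Of 62 groups of libraries examined, each pooling both batches of a genotype, 3 had a lone library far from the rest, where chance gives about 1 in 20. Il4 was at 2.76 CPM in KO replicate 3 (14 counts), where the other KO libraries had 0.620 to 1.20 CPM, and that library also had the highest receptor-gene median, 1.38 CPM. Il17rb was at 4.47 CPM in wildtype replicate 2, where the other wildtype libraries had 2.04 to 2.20 CPM. The log2 ratio of Gata3 over Tbx21 was 3.41 in KO replicate 4, where the other KO libraries had 2.48 to 2.71.

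In 2 cases among these genes and ratios the genotypes did not overlap in either batch, with opposite directions. Of the 15288 genes tested in both batches, 4.96% did so. The ratio of Gata3 over Tbx21 differed by 1.57 on the log2 scale between the batches, with KO minus wildtype at -0.77 in batch 1 and 0.79 in batch 2. The two-sided exact permutation p was 0.0167 (0.05 adjusted over 3 ratios). It was taken after the values had been seen and assumes no genotype difference in either batch. Cd3e, a chain of the T cell receptor complex, was lower in KO than in wildtype by 157 CPM in batch 1, where the means were 1076 CPM in KO and 1232 CPM in wildtype. In batch 2 KO minus wildtype was 221 CPM, with 1497 CPM in KO and 1275 CPM in wildtype, so the batches differed by 378 CPM. The edgeR interaction of Cd3e was 0.46 on the log2 scale (adjusted p = 0.591), and DESeq2 called it.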

How the results depend on the processing

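No genotype or interaction call of a type 2 gene was gained under another scaling, filter or tool, with a replicate block or without the batch term, though DESeq2 gave no adjusted p for 5 of 8 over both batches. In the genotype comparisons Areg, Il17rb and the batch 1 values of Il5 (8 settings) and Il1rl1 (10 settings) kept their sign in every setting run. The number of genes called moved more than 1.5 times in several settings. In batch 1 it was 56 with DESeq2 size factors, 6 with upper-quartile scaling and 68 with no filter, against 31. In batch 2 it was 329 with the DESeq2 test and 34 with no filter, against 0. Over both batches it was 16 with DESeq2, 2 with no filter, 0 without the batch term and 0 with limma-voom, against 1. The interaction had 165 with DESeq2 and 2 with no filter, against 1, and the batch term 25837 with no filter, against 14221. The cause of these shifts was not tested.

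Replicate numbers are shared between the genotypes, but whether they pair the libraries is not known, and replicate 3 crosses the batches. Deviations of same-numbered libraries from their group means had correlations of 0.41, -0.43, -0.08 and -0.11. The deviations of the 2 wildtype libraries of a batch mirror each other, so these correlations can neither show nor exclude pairing. With the replicate block batch 1 had 58 calls, and the estimate of Maf there was 0.0059. Over both batches the block gave -0.13 for Il5 and -0.35 for Il18. No block could be fitted in batch 2, where 1 number is shared.

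Signs also turned, always without a call, over both batches: Il1rl1 -0.013, Ptgdr2 0.20 and Nrg1 0.41 without the batch term, Maf 0.089, Il1rl1 -0.061, Il18 -0.039 and Cd3e 0.012 with limma-voom, and Il18 -0.12 with no filter. The interaction of Gata3 was 0.069 with no filter.

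When each library was left out in turn, a single library left in a group was taken to vary as the other group does. Calls numbered 33 to 118 in batch 1, 0 to 879 in batch 2, 0 to 3 over both batches, 1 to 238 for the interaction and 11456 to 18656 for the batch term, with 0 to 1 type 2 genes called in batch 2, the 1 being Maf without wildtype replicate 3 or wildtype replicate 4. The calls were most numerous without a wildtype library: 61 and 118 in batch 1 without replicates 1 and 2, 268 and 879 in batch 2 without replicates 3 and 4, and 13 and 238 for the interaction without replicates 3 and 4, which also had 6 without KO replicate 3 and 2 without wildtype replicate 2 or KO replicate 5. Over both batches the count was 0, 2 and 3 without wildtype replicates 1, 2 and 4. In batch 1, Gata3 ran from -0.52 to 0.14, Maf from -0.52 to 0.35 and Ptgdr2 from -0.15 to 0.45. In batch 2, Gata3 ran from -0.43 to 0.17, Maf from -0.61 to 0.67, Il4 from -0.98 to 0.40, Il13 from -7.02 (against a KO library with 0 counts, no bound) to 0.20, Il1rl1 from -0.48 to 0.16 and Ptgdr2 from -2.38 to 1.33. Over both batches, Gata3 ran from -0.34 to 0.0013, Maf from -0.34 to 0.23, Il4 from -0.11 to 0.88, Il1rl1 from -0.022 to 0.31 and Ptgdr2 from -0.59 to 0.60, and among the other named genes Il33 ran from -0.20 to 0.65, Il18 from -0.35 to 0.41, Tbx21 from -0.57 to 0.26 and Cd3e from -0.16 to 0.020. The interaction ran from -0.37 to 0.33 for Gata3 and from -4.97 to 5.00 for Il5. The difference, KO minus wildtype, in the log2 ratio of Gata3 over Tbx21 ran from -0.17 to 0.19 and that over Maf from -0.29 to 0.050.

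With 2 or 3 libraries a group, small differences would not have been detectable, and large ones could go uncalled too. In batch 2 edgeR called 0 of 15910 genes, and Il22, at a log2 fold change of -2.74, had an edgeR adjusted p of 0.618. Cytokine levels in batch 1 rest on 2 to 14 counts a library, within the range of sensory receptor genes that T cells do not normally express.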
